A study of Homo sapiens with 6 samples.

Results

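GATA1, GATA2, TAL1, LMO2, LYL1, KLF1, MEIS1, MYB, HHEX and ZFPM1 are 10 genes that encode regulators of blood stem cells and of the erythroid lineage. Binding of V5-tagged GSE1 was described at these 10 of 20033 protein-coding genes (GENCODE version 44, hg38), taking every peak with at least 1 base inside the gene or within 50 kb of either end. Peaks lay around 7 of the 10 genes, and the same 7 genes had a peak in DMSO-treated and in MC2580-treated cells. By the same rule, 47.9% of protein-coding genes had a DMSO peak and 27.3% an MC2580 peak. Of those with a DMSO peak, 52.5% also had an MC2580 peak. GATA1, TAL1 and MEIS1 had none in either condition. KLF1 counted in MC2580 through a peak near the start of another gene, CALR, with 30 bp inside the window. In all, 18 of the 21401 DMSO peaks and 9 of the 13233 MC2580 peaks fell in these windows. Each of those 9 lay over a DMSO peak, and each had a lower score than the DMSO peak beneath it. In the whole lists, 58.0% of MC2580 peaks overlapped a DMSO peak, and 76.7% of overlapping pairs had the lower score in MC2580.

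The study asked where GSE1, a protein found in complexes with the histone demethylase LSD1, lies on chromatin in leukaemia cells, and how this differs when LSD1 is inhibited. Chromatin immunoprecipitation and sequencing (ChIP-seq) with an antibody to the V5 tag was done in NB4, a human acute promyelocytic leukaemia cell line. Cells were transduced with a lentiviral vector for V5-tagged GSE1 (transcript variant 2) or with the empty vector (EV), and GSE1 cells received MC2580, an LSD1 inhibitor, at 2 µM for 24 h, or the vehicle DMSO for 24 h. The 6 libraries were 1 V5 ChIP and 1 input for each of EV, GSE1 with DMSO and GSE1 with MC2580. The antibody therefore reports the tagged protein made from the vector and not the cells' own GSE1. Each condition had 1 library, so there was no replicate error, no test between conditions was possible, and every difference described here is a difference between the libraries. The read depth was unknown. The EV and input libraries entered as the background of the peak calls, and both lists shared the EV library.

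Blood cell identity is set by transcription factors that bind DNA together. GATA1 and GATA2 are zinc-finger proteins that recognise the letters GATA, with GATA2 prominent in stem and progenitor cells and GATA1 in red cell and platelet precursors. TAL1 and LYL1 are related basic helix-loop-helix proteins, and LMO2 is the bridge that joins them to GATA factors. ZFPM1, also called FOG1, is a cofactor of GATA1. KLF1 drives globin and other red cell genes, MYB and MEIS1 sustain progenitors, and HHEX is a homeobox repressor active in early blood and endothelial cells. LSD1 is recruited to such genes by the repressors GFI1 and GFI1B, among others.

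The DNA under the strongest peak is shown for GATA2, MYB, HHEX, LMO2 and the KLF1 window, so that the results can be read beside it. LYL1, whose top DMSO peak scored above that of LMO2, is shown by its promoter, which lies under that peak, and ZFPM1, with the lowest top score, is not shown. Each is the central 300 bases of the highest-scoring DMSO peak of its gene, on the plus strand of hg38. The GATA2 stretch is chr3:128523598-128523897, the MYB stretch chr6:135195414-135195713, the HHEX stretch chr10:92690997-92691296 and the LMO2 stretch chr11:33893770-33894069. The stretch from the peak at the edge of the KLF1 window is chr19:12937575-12937874. It lies outside that window, which ends at chr19:12937201, since 92 bp of its peak fell inside. The closest protein-coding start site to that peak belongs to another gene, CALR. Capitals mark matches, on either strand, to 8 words typical of the sites of blood regulators, and matches may overlap. The word for GATA factors was AGATAA. The word for the E-box, the site of helix-loop-helix proteins such as TAL1 and LYL1, was CAGNTG. The RUNX family, to which the stem cell factor RUNX1 belongs, was searched with TGTGGT. The ETS family, to which the myeloid factor PU.1 belongs, was searched with GAGGAA. The word for the dimers of FOS and JUN proteins, known as AP-1, was TGANTCA. The word for the repressor GFI1 and its relative was AAATCA. The homeobox proteins of the MEIS family were given the word TGACAG. The Krüppel-like family of KLF1 was given the word CCNCNCCC.
GATA2 upstream peak: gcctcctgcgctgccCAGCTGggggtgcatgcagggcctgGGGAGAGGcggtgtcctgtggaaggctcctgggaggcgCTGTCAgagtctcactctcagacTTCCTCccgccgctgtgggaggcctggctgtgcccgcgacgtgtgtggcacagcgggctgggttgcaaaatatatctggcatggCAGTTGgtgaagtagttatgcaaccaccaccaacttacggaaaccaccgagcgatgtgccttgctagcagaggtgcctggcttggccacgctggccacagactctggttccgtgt
MYB gene-body peak: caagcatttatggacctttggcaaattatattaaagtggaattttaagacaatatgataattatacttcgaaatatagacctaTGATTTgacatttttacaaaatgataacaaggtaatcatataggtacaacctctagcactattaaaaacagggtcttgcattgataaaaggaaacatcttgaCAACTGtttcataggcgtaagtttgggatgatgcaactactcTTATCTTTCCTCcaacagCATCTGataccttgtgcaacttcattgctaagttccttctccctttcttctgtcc
HHEX start-site peak: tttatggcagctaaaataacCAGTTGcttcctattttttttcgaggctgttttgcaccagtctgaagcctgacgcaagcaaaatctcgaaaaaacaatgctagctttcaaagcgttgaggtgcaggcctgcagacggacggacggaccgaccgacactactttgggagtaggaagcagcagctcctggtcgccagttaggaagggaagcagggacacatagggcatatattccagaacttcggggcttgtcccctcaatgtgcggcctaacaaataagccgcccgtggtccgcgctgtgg
LMO2 upstream peak: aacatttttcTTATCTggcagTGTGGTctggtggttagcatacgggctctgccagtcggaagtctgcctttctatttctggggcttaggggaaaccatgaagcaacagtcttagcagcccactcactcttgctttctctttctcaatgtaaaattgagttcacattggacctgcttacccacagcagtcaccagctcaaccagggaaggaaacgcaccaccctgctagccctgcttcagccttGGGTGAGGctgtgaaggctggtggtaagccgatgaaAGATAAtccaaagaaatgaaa
KLF1 window-edge peak: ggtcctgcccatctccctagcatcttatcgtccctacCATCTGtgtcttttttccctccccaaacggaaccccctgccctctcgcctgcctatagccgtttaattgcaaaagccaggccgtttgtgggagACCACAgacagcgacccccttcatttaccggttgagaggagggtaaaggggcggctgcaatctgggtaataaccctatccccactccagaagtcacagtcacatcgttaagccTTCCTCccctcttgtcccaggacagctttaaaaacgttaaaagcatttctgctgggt

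The GATA2 stretch held 2 E-box words and 1 each of the ETS, MEIS and KLF words, and no GATA word. The MYB stretch held GATA, E-box, ETS and GFI1 words. The LMO2 stretch held 2 GATA words, 1 RUNX word and 1 KLF word, and the HHEX stretch a single E-box word. The stretch just outside the KLF1 window held E-box, RUNX and ETS words. The peak lists give no summit, so the centre of a peak need not be its point of strongest binding.

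The promoter of LYL1 is shown because a peak covered it in full in both conditions, unlike the other promoters of the 10 genes in the RefSeq table, which matched 9 of them (LMO2 was not matched). It is chr19:13102809-13103108 on the minus strand (RefSeq, GRCh38.p14), from 250 bases before to 50 bases after the start site, printed 5′ to 3′ with the same words in capitals. It held 1 GATA word, 1 ETS word and 4 KLF words.
LYL1 promoter: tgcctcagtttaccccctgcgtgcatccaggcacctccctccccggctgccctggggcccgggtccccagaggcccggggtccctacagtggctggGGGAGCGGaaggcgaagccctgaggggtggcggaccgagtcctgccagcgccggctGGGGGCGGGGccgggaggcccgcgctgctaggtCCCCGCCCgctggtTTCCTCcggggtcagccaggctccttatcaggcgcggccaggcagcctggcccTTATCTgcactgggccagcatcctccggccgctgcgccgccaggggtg

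Over all 18 DMSO peaks of the 10 genes, the GATA word occurred in 7 of the central 300-base windows (38.9%, against 15.6% of the same windows of 21145 DMSO peaks on the main chromosomes). Those 7 were 2 peaks each of LMO2, MYB and ZFPM1 and 1 of the KLF1 window. The ETS word occurred in 10 (55.6%, against 30.4%) and the KLF word in 9 (50%, against 31.5%). The E-box word was found in 8 (44.4%, against 60.7%), the RUNX word in 5 (27.8%, against 30.9%) and the GFI1 word in 3 (16.7%, against 20.8%). The E-box, RUNX and ETS counts each include the stretch just outside the KLF1 window. The MEIS and AP-1 words occurred in 1 window each (5.56%, against 20.3% and 13.3%). Among 35116 RefSeq promoters of the same length, 10.3% held the GATA word, 27.9% the ETS word and 56.2% the KLF word. A match is a run of letters and not a measured binding site, and the 18 windows are too few for more than a count.

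The score of a peak is minus 10 times the log10 of the p-value given by the peak caller, so the calling threshold of 1e-05 is a score of 50. The score grows with read depth as well as with enrichment. The 18 DMSO peaks scored between 53.18 and 1282.94, with a median of 121.4 against 91.08 for the whole DMSO list, and 12 of them were above that list median. The 9 MC2580 peaks scored between 61.58 and 552.06, with a median of 123.1 against 78.10 for the whole MC2580 list. The 10 windows covered 1346 kb, and their density was 13.4 DMSO and 6.69 MC2580 peaks per Mb, against 6.85 and 4.20 over the genome. The genome values cover all sequence and not windows around genes, so they are not a matched background. By the same window rule, 52.1% of protein-coding genes had no DMSO peak and 3.83% had 10 or more. The most around any of the 10 genes was 4, at MYB.

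**Figure D1:**
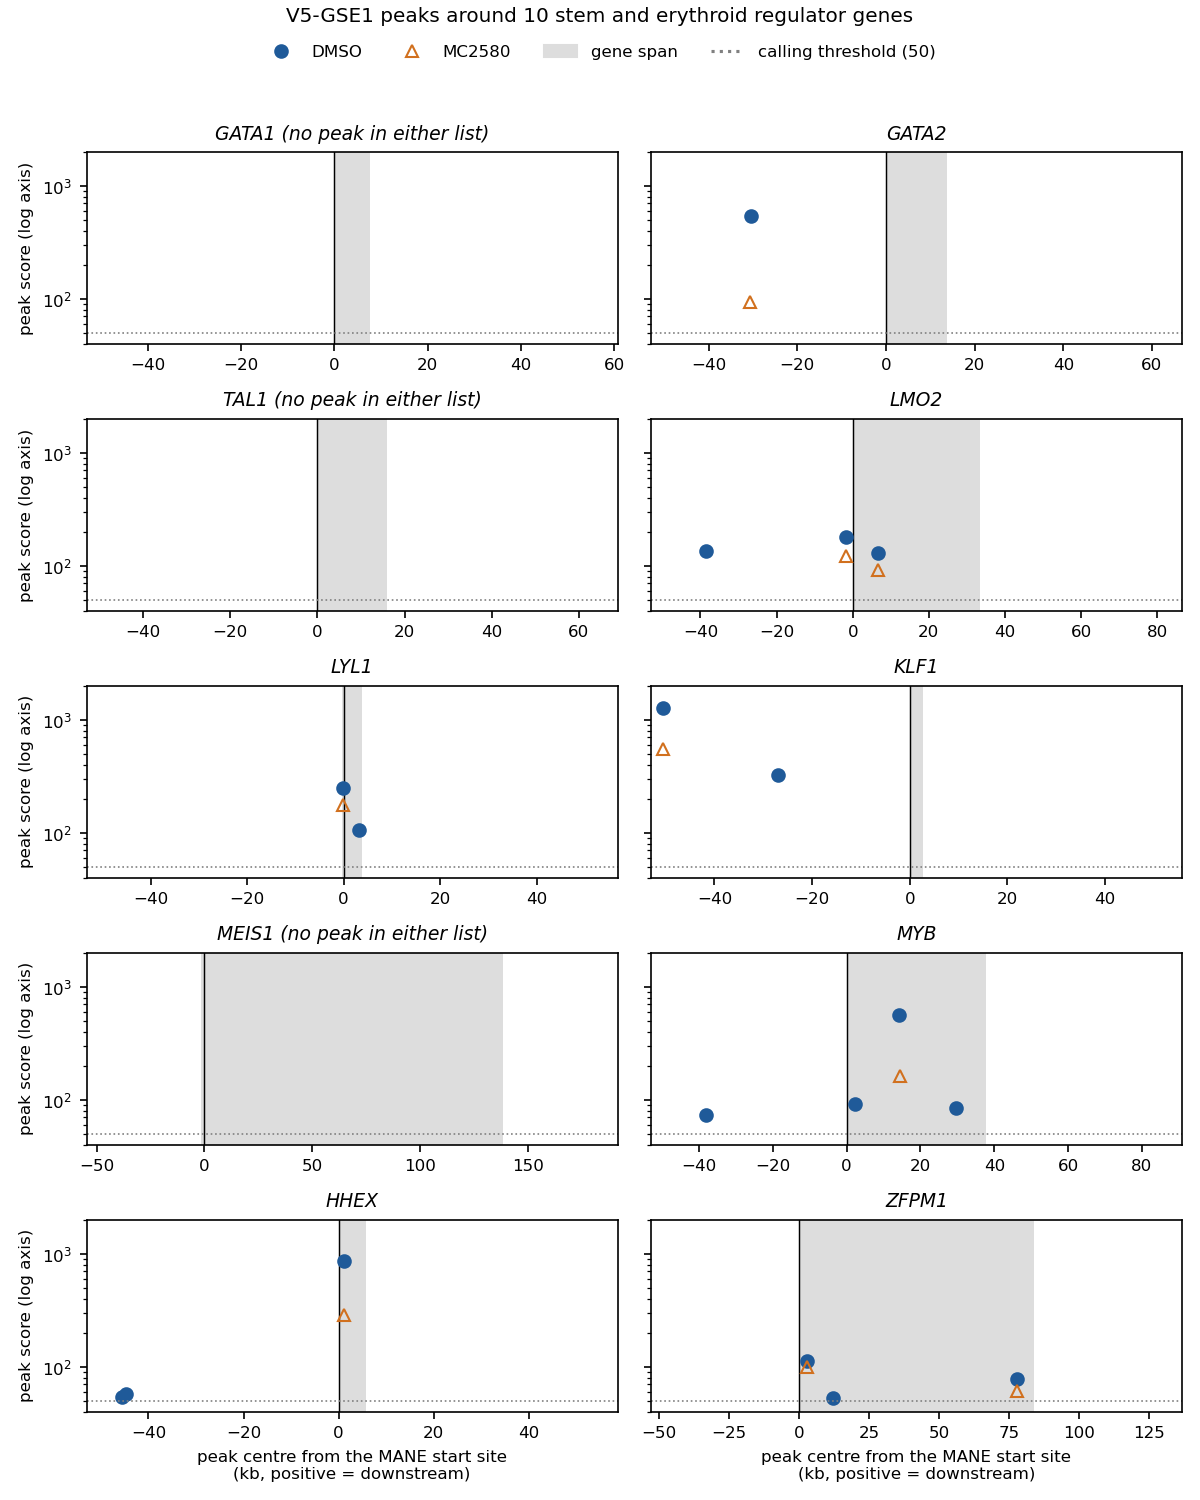
Score of each peak (log axis) against the distance of its centre from the MANE start site of the gene in kb, 1 panel per gene, with DMSO peaks as filled circles, MC2580 peaks as open triangles and the gene span in grey. The 9 triangles each sit below a circle at nearly the same position, and the panels of GATA1, TAL1 and MEIS1 are empty.

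Of the GATA factors, GATA2 had a peak and GATA1 had none. GATA2 (ENSG00000179348.13, chr3:128479427-128493201, minus strand) had 1 DMSO peak, chr3:128523185-128524310, with a score of 546.19, among the top 5.26% of the DMSO list. It lay in intergenic DNA, with its near edge 29984 bp upstream of the closest GATA2 start site and with no other protein-coding start site nearer. The MC2580 peak there, chr3:128523288-128524260, was wholly inside the DMSO peak and scored 93.59. The ratio of the MC2580 to the DMSO score was 0.171, the lowest of the 9 pairs. Of the 184 pairs of the whole lists with a DMSO score within 10% of this one, the median ratio was 0.301 and 20.7% had a lower ratio than GATA2. Neither GATA2 promoter of RefSeq was touched by a peak of either list.

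GATA1 (ENSG00000102145.16, chrX:48786540-48794311, plus strand) had no peak within 50 kb. The nearest DMSO peak lay 372645 bp from the gene, had a score of 57.56 and lay near the start of MAGIX, and the nearest in MC2580 was 2605849 bp from it. A more distant nearest DMSO peak was found for 16.4% of protein-coding genes. The megabase around GATA1 held 2 DMSO peaks and no MC2580 peak.

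ZFPM1, which encodes the GATA1 cofactor FOG1, carried peaks inside the gene with DMSO scores from 53.18 to 112.17, against a list median of 91.08. ZFPM1 (ENSG00000179588.9, chr16:88453280-88537031, plus strand) had 3 DMSO peaks. That at chr16:88455485-88456516, in intron 1 with its edge 1858 bp from the closest own start site, scored 112.17. The MC2580 peak chr16:88455477-88456511 scored 100.3 there, a ratio of 0.894, the highest of the 9 pairs. The DMSO peak chr16:88530526-88531461, in intron 6 and within 3 kb of a start site of the antisense gene ZFPM1-AS1, scored 77.45. It was matched by the MC2580 peak chr16:88530734-88531383 with a score of 61.58, a ratio of 0.795. The remaining DMSO peak, chr16:88464935-88465666 in intron 1, scored 53.18, close to the calling threshold, and no MC2580 peak overlapped it. The megabase around ZFPM1 was the densest of the 10, with 29 DMSO and 12 MC2580 peaks against medians of 5.00 and 1.00 over all protein-coding genes.

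The related helix-loop-helix genes LYL1 and TAL1 also differed. LYL1 (ENSG00000104903.5, chr19:13099033-13103161, minus strand) had a DMSO peak over its promoter, chr19:13102332-13103782, with a score of 248.56, which covered all 3 annotated start sites of the gene. The MC2580 peak chr19:13102260-13103578 scored 174.84 there, a ratio of 0.703. Of the 405 pairs of the whole lists with a DMSO score within 10% of this one, 84.2% had a lower ratio, and their median was 0.385. A further DMSO peak at the 3′ end of LYL1, chr19:13099180-13100367, covered parts of exon 4 and intron 3 and scored 105.03. It overlapped no MC2580 peak, and the nearest lay 1893 bp away at the promoter.

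TAL1 (ENSG00000162367.12, chr1:47216290-47232225, minus strand) had no peak in the window and none in the megabase around it. The nearest DMSO peak was 693287 bp from the gene, with a score of 115.86, and the nearest in MC2580 was 1671822 bp from it. For 9.04% of protein-coding genes the nearest DMSO peak was farther.

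LMO2, the bridge of the TAL1 or LYL1 complex, was bound on both sides of its start. LMO2 (ENSG00000135363.12, chr11:33858576-33892076, minus strand) had a DMSO peak at chr11:33893428-33894411 with a score of 181.59, 1352 bp upstream of the closest start site. The MC2580 peak chr11:33893343-33894327 scored 123.09 there, a ratio of 0.678. A DMSO peak in intron 1, chr11:33884991-33885875, scored 130.71 and was matched by the MC2580 peak chr11:33885046-33886029 with a score of 92.15, a ratio of 0.705. The ratios of these pairs were thus nearly the same. A DMSO peak 38.5 kb upstream, chr11:33930047-33931030, scored 135.52, slightly more than the intronic peak. It overlapped no MC2580 peak, and the nearest lay 35720 bp away. Of the 1640 DMSO peaks of the whole list with a score within 10% of this one, 38.7% overlapped an MC2580 peak.

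KLF1, the erythroid Krüppel-like factor, had no peak in the gene or at its start. KLF1 (ENSG00000105610.6, chr19:12884422-12887201, minus strand) had 2 DMSO peaks in the window, both nearer to the start site of another gene. The DMSO peak chr19:12937110-12938339 had the highest score around any of the 10 genes, 1282.94, but 92 bp of it lay inside the window. It lay 239 bp from a start site of CALR, the gene of the chaperone calreticulin. The MC2580 peak chr19:12937172-12938104 scored 552.06 there, a ratio of 0.430, and had 30 bp inside the window. The DMSO peak chr19:12913703-12914772, in the overlapping genes GCDH and SYCE2 and 26502 bp from KLF1, scored 326.05 and overlapped no MC2580 peak. Of the 537 DMSO peaks of the whole list with a score within 10% of this one, 73.4% did overlap an MC2580 peak. Counting a peak where its centre lay in the window, a choice made after seeing the data, removed the CALR-side peaks and left KLF1 with 1 DMSO and no MC2580 peak.

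MYB, a regulator of progenitor growth, was the gene with the most DMSO peaks, 4. MYB (ENSG00000118513.20, chr6:135181308-135219173, plus strand) had its strongest DMSO peak inside the gene at chr6:135194886-135196242, with a score of 565.69. It spanned exon 9 and parts of introns 8 and 9, 14.3 kb downstream of the MANE start site, and covered the start of 1 short MYB transcript. The MC2580 peak chr6:135195118-135196174 lay wholly inside it and scored 162.06, a ratio of 0.286. The median ratio of the 174 pairs of the whole lists with a DMSO score within 10% of this one was 0.290, so the MYB pair was close to the middle of comparable pairs.

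The other 3 MYB peaks scored near or below the DMSO list median of 91.08 and were found in DMSO alone. They were chr6:135183189-135184191 in intron 1 with a score of 91.92, chr6:135210376-135211403 in intron 15 with 84.12, and chr6:135142769-135143521, 38.2 kb upstream, with 73.26. The nearest MC2580 peaks lay 10927, 14202 and 51597 bp away.

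Of the homeobox genes, HHEX carried the widest peak of the 10 genes and MEIS1 carried none. HHEX (ENSG00000152804.11, chr10:92689955-92695647, plus strand) had a DMSO peak over its start, chr10:92689866-92692427, 2562 bp wide with a score of 871.42. It ran from 89 bp before the MANE start site to 2472 bp after it, over exons 1 and 2 and the intron between them. The MC2580 peak chr10:92690231-92692126 scored 288.43, a ratio of 0.331, and began 276 bp after the start site. The DMSO peak therefore covered 139 bases of the RefSeq promoter of HHEX and the MC2580 peak none. Both peaks covered the starts of 2 HHEX transcripts that begin farther inside the gene. The other DMSO peaks of the window, chr10:92644070-92644760 and chr10:92644850-92645509, were neighbours within KIF11, the gene of a mitotic motor protein. They lay 45.5 and 44.8 kb upstream of the HHEX start, had scores of 53.56 and 57.31, and overlapped no MC2580 peak.

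MEIS1 (ENSG00000143995.20, chr2:66433452-66573869, plus strand) had the longest window of the 10 genes, 240 kb, and no peak in it. The nearest DMSO peak was 874559 bp away with a score of 59.32, and the nearest MC2580 peak 736590 bp away with a score of 50.74, just above the threshold. The nearest DMSO peak was farther for 7.07% of protein-coding genes. MEIS1 and TAL1 were the members with no peak of either list in the surrounding megabase, as were 13.0% of protein-coding genes.

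Around the 10 genes as a group, 7 of 10 had a DMSO peak in the window, against 47.9% of protein-coding genes. An MC2580 peak was found at 7 of 10, against 27.3%. A peak within 3 kb of a start site of the gene itself was found at 5 of 10 in DMSO, against 16.1%, and at 5 of 10 in MC2580, against 7.87%. In both lists these were LMO2, LYL1, MYB, HHEX and ZFPM1, where MYB in MC2580 counted through the start of a short transcript inside the gene. All 7 genes with a DMSO peak also had an MC2580 peak, against 52.5% of the protein-coding genes with a DMSO peak. KLF1 counted in MC2580 through 30 bp of a peak whose closest protein-coding start site was that of CALR. With peaks taken by their centres, 6 genes had an MC2580 peak. The counts for the 10 genes were above these background shares. Those near the start depended on the distance allowed. With 1 kb in place of 3 kb, 3 genes had such a peak in each list, and no background share was computed for 1 kb. However, the genes are few, were chosen with earlier results of these data known, and were not tested as a set.

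By place, 9 of the 18 DMSO peaks lay within 3 kb of an annotated start site of any gene, 2 in exons or untranslated regions, 4 in introns and 3 between genes. Of the 9 MC2580 peaks, 7 lay near a start site, 1 in an intron and 1 between genes. The member gene had the closest protein-coding start site for 15 of the 18 DMSO peaks and 7 of the 9 MC2580 peaks. The exceptions were the peaks of the KLF1 window and the peak in intron 6 of ZFPM1.

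In DMSO, 9 of the 18 peaks (50%, exact 95% interval 26 to 74.0, for counting error alone) overlapped an MC2580 peak, against 33.6% of the whole DMSO list. In MC2580, 9 of 9 (100%, 66.4 to 100) overlapped a DMSO peak, against 58.0% of the whole MC2580 list. No site around the 10 genes was therefore called in MC2580 alone. The 9 scored higher than that list, with medians of 123.1 and 78.10. Among MC2580 peaks with a score within 10% of each of the 9, the overlapping share was 63.0% to 100%. The exception was 38.5%, for the peak in intron 6 of ZFPM1. The 9 DMSO peaks with an overlap had a median score of 248.6, and the 9 without had a median of 84.12. The same order held for the whole list, with medians of 164.4 and 77.54.

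**Figure D2:**
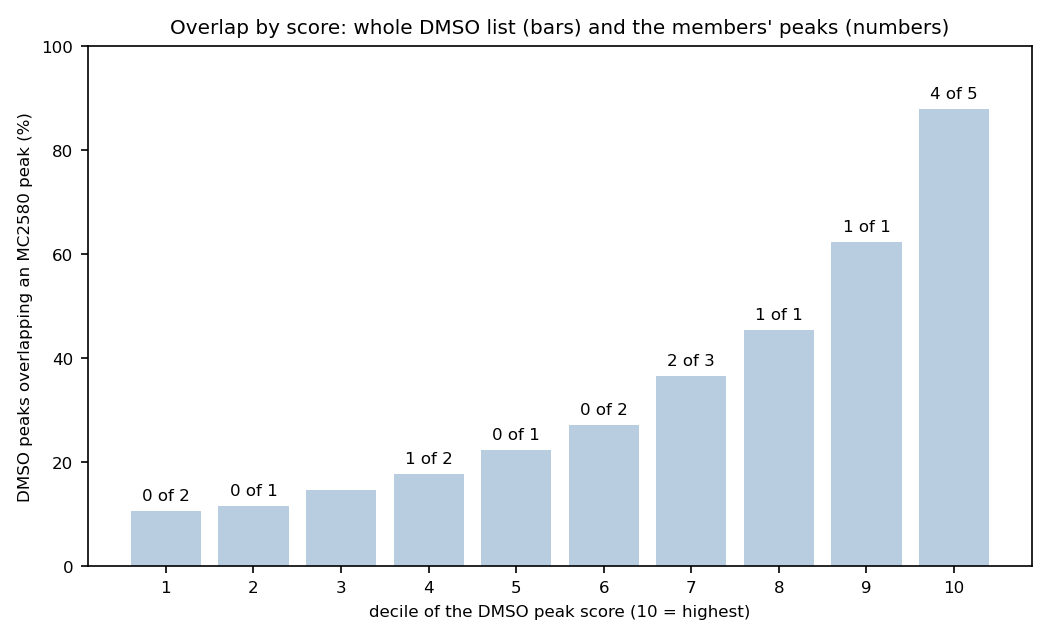
Percent of DMSO peaks of the whole list that overlap an MC2580 peak (bars, axis from 0), by decile of the DMSO score, with the number above each bar giving the peaks of the 10 genes that overlap out of those in the decile. The share grows with the score, and 4 of the 5 peaks of the 10 genes in the top decile overlap.

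Whether a DMSO peak was also called in MC2580 went with its score, as the plot of overlap by decile shows. In the top decile of DMSO scores, 87.9% of the list overlapped an MC2580 peak, as did 4 of the 5 member peaks there, the exception being the peak in GCDH and SYCE2 near KLF1. Above the list median, 8 of 12 member peaks overlapped, against 51.9% of the list. Below it, 1 of 6 did, the peak in intron 6 of ZFPM1, against 15.4%.

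In all 9 overlapping pairs the MC2580 score was the lower, as it was in 76.7% of the 5449 one-to-one pairs of the whole lists. The median ratio of the MC2580 to the DMSO score was 0.678, with a range from 0.171 to 0.894, beside a median of 0.638 and quartiles of 0.385 and 0.966 for all pairs. Among the 4415 pairs with DMSO scores in the range of the members' pairs, 85.4% were lower in MC2580 and the median ratio was 0.545. The lower scores of the 9 pairs were therefore near what the lists showed at large. The read depth, which moves every score of a library, was unknown, and its part in the ratios was not tested.

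**Figure D3:**
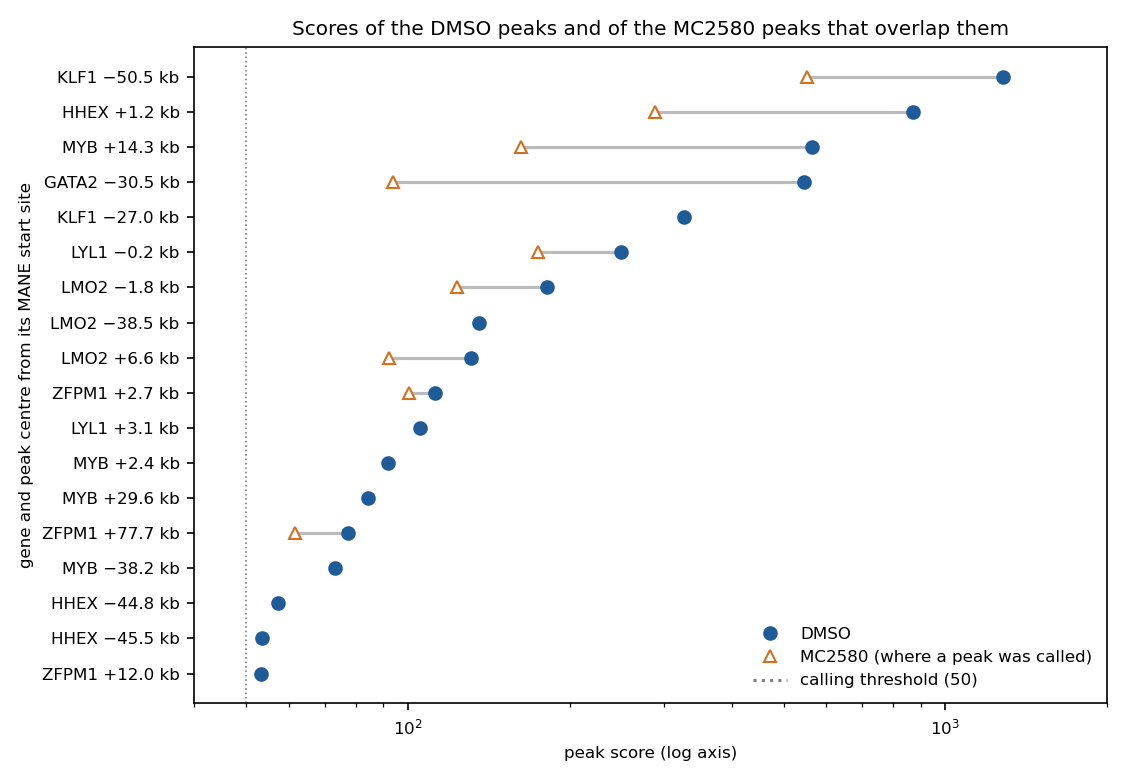
Scores of the 18 DMSO peaks (filled circles) and of the overlapping MC2580 peaks (open triangles, joined by a line) on a log axis, ordered by DMSO score and named by gene and by the distance of the peak centre from the start site in kb. The longest line is that of GATA2, from 546.19 to 93.59, and all triangles lie to the left of their circles.

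The ratios were lower for the stronger DMSO peaks. The 4 pairs with a DMSO score of at least 300, those of GATA2, MYB, HHEX and the KLF1 window, had ratios from 0.171 to 0.430. The 5 pairs of LMO2, LYL1 and ZFPM1, with lower DMSO scores, had ratios from 0.678 to 0.894. The score of 300 lies in a gap of the members' pairs, whose DMSO scores have no value between 248.56 and 546.19. The DMSO score is also the denominator of the ratio, so an order of this kind is partly built in. The whole lists had the same order, with a median ratio of 0.325 over 1353 pairs at or above 300 and of 0.732 over 4096 pairs below it. Their quartiles were 0.211 and 0.522 above and 0.497 and 1.07 below, so the classes overlapped in the whole lists. A weak DMSO peak enters such a pair when its MC2580 score passes the threshold of 50, which keeps low ratios out of the weaker class. The centres of the 9 pairs lay 82.0 bp apart in the median and 138 bp at most, and 6 of the 9 MC2580 peaks were narrower than their DMSO peak. Pairs were chosen by overlap, which favours near centres, and these values were not computed for the pairs of the whole lists. The median peak width was 1000 bp in the whole DMSO list and 928 bp in the MC2580 list.

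Genes that act with these regulators were counted by the same window rule. Of 14 complex partners, such as LDB1 and the E proteins, 7 had a DMSO peak and 6 an MC2580 peak, against 47.9% and 27.3% of protein-coding genes, so that the DMSO count was near the background. Within 3 kb of their own start, 5 had a DMSO and 4 an MC2580 peak, against 16.1% and 7.87%. Of their 25 DMSO peaks, 11 overlapped an MC2580 peak (44%), against 33.6% of the whole list. The highest DMSO scores were at CBFA2T3 (887.5, with 559.92 at the overlapping MC2580 peak), a corepressor of the TAL1 complex, at SSBP4 (672.78 and 92.39), and at TCF12 (285.74 and 70.63), an E protein. CBFA2T2, a relative of CBFA2T3, followed with 260.61 and 70.92. The closest start site of the named gene lay 924 bp (CBFA2T3), 25627 bp (SSBP4), 972 bp (TCF12) and 50844 bp (CBFA2T2) from these DMSO peaks. The 4 top peaks of these partners were thus found in both conditions, each with the lower score in MC2580.

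Of 24 erythroid and megakaryocytic effector genes, 8 had a DMSO peak and 3 an MC2580 peak, both below the shares of 47.9% and 27.3% over protein-coding genes. Within 3 kb of their own start, 3 had a DMSO and 2 an MC2580 peak, against 16.1% and 7.87%. The 8 globin genes of the list had none in either condition, and several of them share 1 window. An empty region was therefore counted more than once in these counts, which may account for some of the distance from the background shares. The highest scores were at NFE2 (2024.44 in DMSO and 1413.73 in MC2580), a factor of globin and platelet genes, and at ANK1 (1101.61 and 133.5), the gene of erythrocyte ankyrin. At BCL11A, a repressor of fetal globin, and SLC4A1, the red cell anion exchanger, the top DMSO peaks scored 185.05 and 165.55 and overlapped no MC2580 peak. BCL11A did have 1 MC2580 peak elsewhere in its window. The closest start site of the named gene lay 2743 bp (NFE2), 9622 bp (ANK1), 11260 bp (BCL11A) and 11152 bp (SLC4A1) from these DMSO peaks. The SLC4A1 peak was within 3 kb of a start site of another gene. Of the 16 DMSO peaks of the list, 3 overlapped an MC2580 peak (18.8%), against 33.6% of the whole list.

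Of 14 stem and progenitor genes, 10 had a DMSO peak and 7 an MC2580 peak, against 47.9% and 27.3% of protein-coding genes. Within 3 kb of their own start, 6 had a DMSO peak, against 16.1%, and 1 had an MC2580 peak, near the background of 7.87%. The highest DMSO scores were at CXCR4, a chemokine receptor (967.17 and 132.47), FLT3, a receptor tyrosine kinase (546.47 and 78.44), MSI2, an RNA-binding protein (334.69 and 137.32), and TEK, a receptor for angiopoietins (233.57 and 122.25). The closest start site of the named gene lay between 10158 bp (TEK) and 16657 bp (FLT3) from these DMSO peaks. Of 49 DMSO peaks, 11 overlapped an MC2580 peak (22.4%), against 33.6% of the whole list, and 23 of the 49 were at TEK.

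Of 13 relatives of the regulators by family, 8 had a DMSO peak and 4 an MC2580 peak, against 47.9% and 27.3% of protein-coding genes, so that the MC2580 count was near the background. Within 3 kb of their own start, 2 had a DMSO and 1 an MC2580 peak, against 16.1% and 7.87%. Of their 25 DMSO peaks, 12 overlapped an MC2580 peak (48.0%), against 33.6% of the whole list. This share and that of the complex partners were close to the 50% of the 10 regulators. Of the peaks of this list, however, 8 of the 25 in DMSO and 13 of the 18 in MC2580 were at MEIS3. The top peak of MEIS3 had the score 3100 in both lists, a value shared by 116 DMSO peaks that may not rank them. That DMSO peak lay 43105 bp from the closest MEIS3 start site and within 3 kb of a start site of another gene. MYBL2, a relative of MYB, followed the pattern of the other pairs (508.82 and 162.43), with its DMSO peak 84209 bp from the closest MYBL2 start site. KLF2 (724.87) and KLF4 (139.61), relatives of KLF1, had top DMSO peaks that no MC2580 peak overlapped. KLF2 had 3 MC2580 peaks elsewhere in its window, and KLF4 had none.

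**Figure D4:**
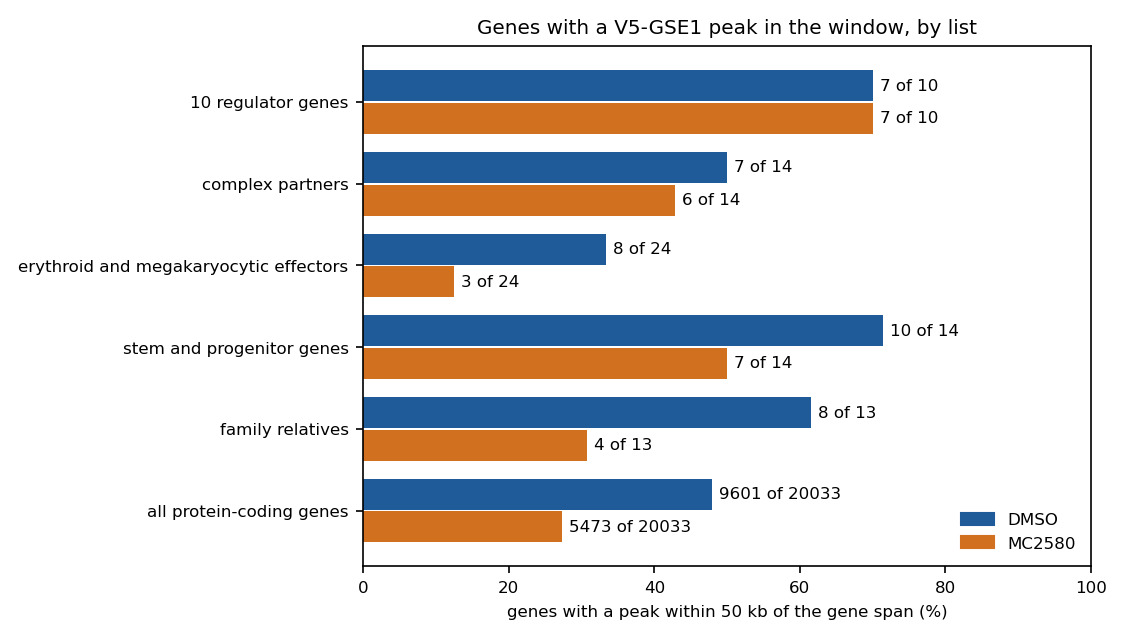
Percent of genes with a peak within 50 kb of the gene span (axis from 0 to 100) for the 10 regulators, 4 lists of other genes and all protein-coding genes, with DMSO and MC2580 as separate bars and the counts beside them. The 10 regulators have 7 of 10 in both conditions, whereas the erythroid and megakaryocytic effectors, several of them globin genes that share a window, have 8 and 3 of 24.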

How the data were processed

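The authors sequenced V5 ChIP and input libraries and, per the study's methods, aligned reads to hg38 with Bowtie (given as 4.8.2), kept unique matches with at most 2 mismatches, and used MACS to find peaks (p-value 1e-05) against the respective input and the EV ChIP. How both backgrounds were combined was not stated. The deposited values were 2 peak lists with a position and a score per peak, the score being minus 10 times the log10 of the p-value, so it depends on depth. Lists were assigned to conditions by their names. Running peak numbers in the DMSO list left 1165 numbers unused, of which 1 fell in the stretch between the peaks flanking the LMO2 window and 2 in that of HHEX. Peaks with these numbers were not analysed here.

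All peaks of both lists were used, without a filter. GENCODE 44 gave gene spans and start sites. Promoter peaks lay within 3 kb of a start site, and overlap meant at least 1 bp. Word matches were counted on both strands. The 10 genes and the other gene lists were chosen with earlier results of these data known. All 10 genes and all their peaks were named, and in the other lists the 4 genes with the highest DMSO scores. No test was made, since each group held 1 library. Intervals are exact binomial ones for counting error alone. Alternatives were other windows, a score minimum of 100, other rules for overlap, other promoter distances and joining of peaks less than 1 kb apart, and, chosen after seeing the data, the centre of a peak in the window. Functions were tested on simulated data. The work used Python 3.11.15 with pysam 0.24.0, numpy 2.4.6, scipy 1.17.1, pandas 2.3.3 and matplotlib 3.10.9.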

Additional observations from a re-analysis of the deposited data

How the results depend on the processing

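The number of DMSO peaks around the 10 genes moved from 18 to 11 with windows of 20 kb, to 29 with windows of 100 kb, and to 11 with a score minimum of 100. With promoters set to 1 kb, 3 genes in place of 5 had a promoter peak in DMSO and 3 in MC2580. The other 33 of 38 alternative values stayed within 1.5 times the count, within the exact interval of the share, or, for the median ratio, between 0.286 and 0.795, the second lowest and second highest of the 9 ratios. The overlapping share of the DMSO peaks ran from 41.4% (100 kb windows) to 63.6% (20 kb windows), and the median ratio from 0.420 (100 kb windows) to 0.703 (20 kb windows). All MC2580 peaks of the windows overlapped a DMSO peak under each alternative run for that share. Taking peaks by their centres left 17 DMSO and 8 MC2580 peaks, and 6 genes with an MC2580 peak. Measured from the 5′ end of the gene alone, 4 genes had an MC2580 promoter peak, MYB being the one lost. No paired analysis was possible because each condition held 1 library. Unknown read depth limits every score and every count of peaks near the threshold, and no library could be left out.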
